A study of Mus musculus with 12 samples.

Results

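The genes described here are 10 components of the bone morphogenetic protein (BMP) pathway and its best-known target family. They are the inhibitor of DNA binding genes Id1, Id2, Id3 and Id4, the inhibitory SMAD genes Smad6 and Smad7, and the ligand genes Bmp2, Bmp4, Bmp6 and Bmp7. They were found by symbol in a count table of 47747 gene symbols, and all 10 were present and among the 18593 genes that passed a filter on low counts. Total RNA was sequenced from the meninges, the membranes around the brain, of 12 C57bl/6 mice. Of these, 6 mice drank water with 2% DSS (dextran sulfate sodium, an agent that damages the lining of the gut) for 5 days and then plain water, and 6 were controls. Culling was after 6 days, and the labels do not say from which day this was counted. The labels give no sex or age and no genotype beyond the strain, and the series design counts 12 mice, so each library was taken as 1 animal. The comparison asks what DSS colitis does to gene expression in the meninges.

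BMP ligands are secreted dimers that assemble type I and type II receptor kinases on the cell surface. The receptors phosphorylate SMAD1, SMAD5 and SMAD9, which enter the nucleus with SMAD4 and switch on Id1, Id2, Id3, Smad6 and Smad7 in many cell types. ID proteins have a helix-loop-helix but no basic DNA-binding region, so they tie up E proteins and other basic helix-loop-helix factors, while SMAD6 and SMAD7 feed back to dampen the receptors and SMADs. Endothelial cells are a main site of BMP signalling in adult vessels, and the meninges are a source of BMP ligands for the brain in mice.

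The set was put together with the DSS against Control results of these mice known, since Id2 stood among the genes with the clearest fall. Every difference between DSS and control mice in the 10 genes is therefore given as a description, also where a call is stated, and supports nothing beyond itself. A gene is named as called where its Benjamini-Hochberg adjusted p, over all 18593 genes in edgeR's quasi-likelihood fit, was under 0.05.

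The libraries held 9312788 to 41869997 counts. The source label names colon, whereas the titles and the extraction protocol name meninges. Levels are given in CPM, counts scaled for library size with TMM factors. Col1a1, a collagen gene of fibroblasts and osteoblasts, was at 4280 to 9120 CPM in DSS mice and at 4160 to 7040 CPM in controls. The summed level of 6 colon epithelium genes lay between 4.78 and 12.4 CPM in DSS mice and between 4.72 and 7.79 CPM in controls, with the intestinal factor gene Cdx2 at 0 counts in every library. DSS replicate 2 stood apart through 7 skeletal muscle genes, which summed to 173 CPM there and to 2.36 to 6.12 CPM in the other DSS mice, against 5.17 to 13.4 CPM in controls. In Control replicate 2 the ribosomal RNA features Rn18s-rs5 and AY036118 took 59.8% of counts, against 0.043% to 2.76% in DSS mice and 0.194% to 9.23% in the other controls. Markers of other cells also differed. All 10 neutrophil genes were called higher, summing to 260 to 1390 CPM in DSS mice and 68.5 to 200 CPM in controls, and DSS replicate 3 was the DSS mouse at 260 CPM. Of 7 osteoclast genes 6 were tested and 5 were called lower, with sums of 192 to 356 CPM in DSS mice and 353 to 562 CPM in controls. In bulk tissue, fewer cells of a type and less RNA per cell cannot be told apart.

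SMADs and basic helix-loop-helix factors act by binding DNA near genes, so promoter sequences are given for some of the 10. The RefSeq table for GRCm38.p6 held promoters for 6 of the 10 genes (Id2, Id3, Id4, Smad6, Bmp4 and Bmp6), and those of the 3 ID genes and of Smad6 are shown from 250 bases before to 10 bases after the annotated start. Capitals mark GGCGCC, a GC-rich element to which BMP-activated SMADs can bind, GTCTAGAC, a palindrome of 2 SMAD half-sites, and CANNTG, the E-box of basic helix-loop-helix factors. Id2 is shown because it differs in level, Id3 because its levels overlapped between the groups, Id4 as the least expressed ID gene and Smad6 as the feedback gene.
Id2 (chr12:25096083-25096342, minus strand): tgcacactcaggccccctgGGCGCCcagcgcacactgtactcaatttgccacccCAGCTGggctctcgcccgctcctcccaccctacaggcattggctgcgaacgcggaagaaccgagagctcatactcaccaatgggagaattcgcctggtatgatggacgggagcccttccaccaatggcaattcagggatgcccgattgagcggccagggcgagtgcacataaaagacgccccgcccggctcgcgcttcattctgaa
Id3 (chr4:136143572-136143831, plus strand): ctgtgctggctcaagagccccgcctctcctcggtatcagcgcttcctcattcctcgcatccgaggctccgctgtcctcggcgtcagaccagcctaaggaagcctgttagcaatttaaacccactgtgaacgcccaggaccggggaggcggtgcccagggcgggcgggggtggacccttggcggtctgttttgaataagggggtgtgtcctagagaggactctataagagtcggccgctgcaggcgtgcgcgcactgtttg
Id4 (chr13:48260866-48261125, plus strand): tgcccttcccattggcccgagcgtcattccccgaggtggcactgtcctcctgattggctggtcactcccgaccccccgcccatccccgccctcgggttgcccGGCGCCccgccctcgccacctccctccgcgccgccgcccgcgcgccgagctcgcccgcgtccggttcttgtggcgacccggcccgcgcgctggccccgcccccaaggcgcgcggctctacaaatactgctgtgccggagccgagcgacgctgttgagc
Smad6 (chr9:64022050-64022309, minus strand): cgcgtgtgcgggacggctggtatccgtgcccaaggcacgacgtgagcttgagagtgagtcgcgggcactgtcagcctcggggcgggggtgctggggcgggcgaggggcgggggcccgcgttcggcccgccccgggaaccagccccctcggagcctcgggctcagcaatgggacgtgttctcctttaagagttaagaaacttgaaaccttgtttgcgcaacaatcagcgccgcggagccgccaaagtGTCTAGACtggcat

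Motifs were searched on both strands over the full 300 bases, from 250 before to 50 after the start, with position 1 as the first transcribed base and -1 the base before it. GGCGCC was in the Id2 window at -231 to -226 and in the Id4 window at -148 to -143, and 11.9% of 32851 promoter windows held it. GTCTAGAC was in the Smad6 window alone among the 6, spanning the start from -4 to 4, and 0.213% of all windows held it. It contains a half-site GTCT on each strand, and GTCT was in 88.0% of windows. An E-box was at -196 to -191 in Id2 and at 8 to 13 in Smad6, the second of which lies partly beyond the printed bases. The Bmp4 window held 3 E-boxes and the Bmp6 window 2, and 72.3% of all windows held at least 1. The Id3 window had neither GGCGCC nor an E-box. Id2, Id4 and Smad6 also held CCAAT, which 37.4% of windows held. These are matches of letters in a short window and say nothing of what binds there. In GENCODE M21 the Id2 gene reaches from 25093799 to 25097140 on chromosome 12, so its annotated upstream end lies beyond the start used here. The same holds for Id3, whose annotated gene begins at 136143497, upstream of the printed window, and for Bmp6, which begins at 38345107. On the same build Id1 lies on chromosome 2 from 152736251 to 152737410, Id3 on chromosome 4 from 136143497 to 136145755 and Id4 on chromosome 13 from 48261228 to 48266026. Smad6 lies on chromosome 9 from 63953076 to 64022059 and Bmp7 on chromosome 2 from 172868012 to 172940321. Counts are per gene.

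Among the ID genes, Id2 was lower in DSS mice. Its lowest, median and highest levels were 75.2, 86.4 and 94.4 CPM in DSS mice, against 114, 122 and 129 CPM in controls. The highest DSS mouse lay below the lowest control, so the groups did not overlap. The mean was 86.0 ± 6.97 CPM in DSS mice and 121 ± 5.80 CPM in controls (SD, n = 6 each), a log2 fold change of -0.50 (SE 0.07) or 0.708-fold. Id2, whose product is needed for natural killer and innate lymphoid cells in mice and is broadly expressed in other cells, was the 1 gene of the 10 that was called. Of all tested genes 4.94% were called and 1.26% were called lower. The call held in all 19 alternative analyses, with log2 fold changes between -0.53 and -0.46. These refit the same mice in which the fall of Id2 was already known, so they describe the processing and give no independent support. Genes of T, natural killer and innate lymphoid cells summed to 28.9 to 46.1 CPM in DSS mice and 32.3 to 42.2 CPM in controls, with 0 of 8 called. Dendritic cell genes, another Id2-expressing lineage, summed to 30.8 to 39.3 CPM in DSS mice and 27.1 to 37.1 CPM in controls, with 0 of 6 called. The part of the neutrophil and osteoclast differences in the Id2 level was not tested.

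Id1, the ID gene most often used as a readout of BMP receptor activity, had a lowest, median and highest level of 43.2, 49.2 and 60.1 CPM in DSS mice and 46.6, 50.7 and 61.2 CPM in controls. The ranges nearly coincided, with a log2 fold change of -0.05 (SE 0.09), and Id1 was not called. Id3, which is often expressed alongside Id1 in vessels and mouse embryos, had 155, 183 and 207 CPM in DSS mice and 167, 184 and 199 CPM in controls. The DSS mice of Id3 spanned the whole range of the controls, and its log2 fold change was 0.01 (SE 0.08), with a sign that turned in 4 of 19 alternatives. Id4, an ID gene of neural and mammary progenitors, had 5.21, 9.19 and 11.9 CPM in DSS mice and 9.89, 11.0 and 13 CPM in controls. For Id4, 3 of 6 DSS mice were under all controls, and the log2 fold change was -0.34 (SE 0.17), not called. Exons of Id4 overlap 82 bases of A330033J07Rik on the opposite strand, which had 1 to 9 counts per library. They also overlap 171 bases of Gm49291, which was not among the counted gene symbols.

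**Figure D1:**
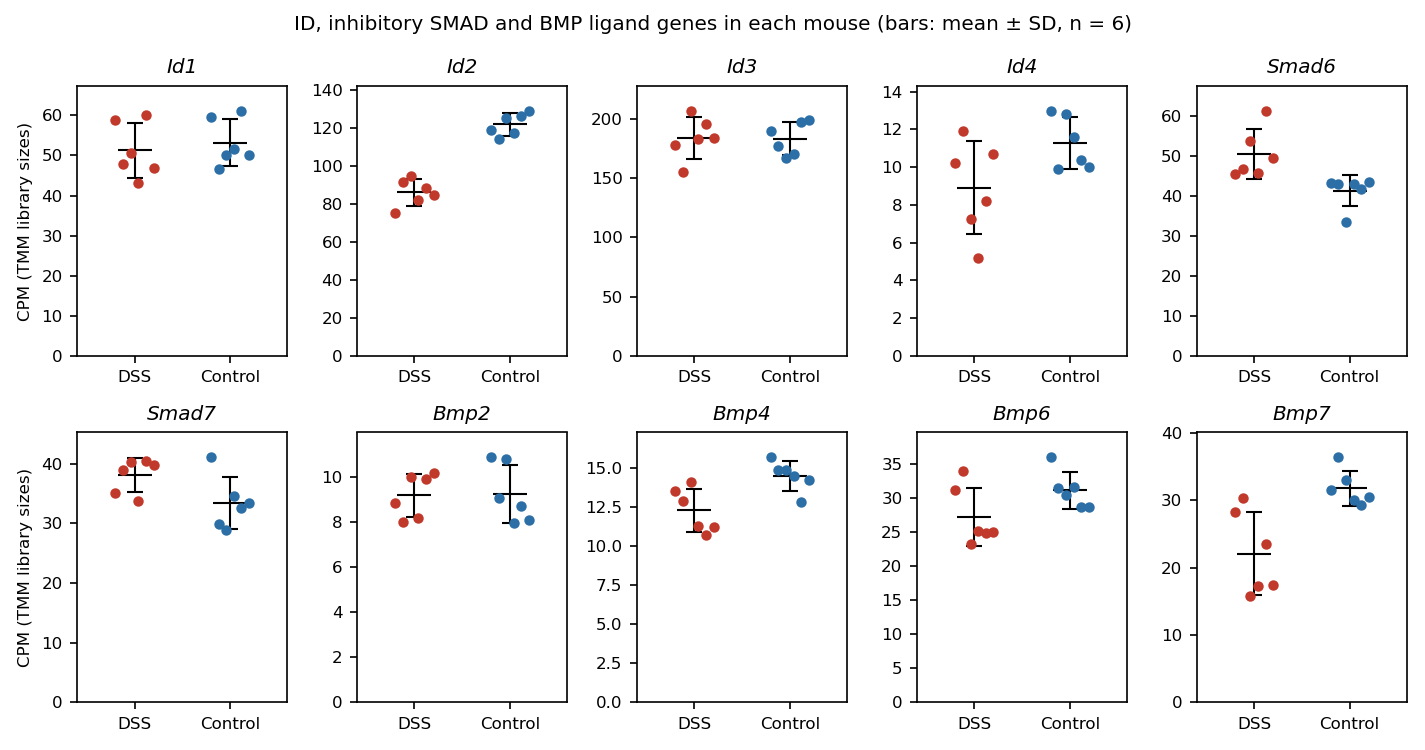
CPM on TMM-scaled library sizes (vertical axes, each from 0) of the 10 genes in DSS and control mice; each point is a mouse and bars are mean ± SD (n = 6). Id2 lies at 75.2 to 94.4 CPM in DSS mice, below all controls at 114 to 129 CPM, whereas Id1 and Id3 overlap between the groups.

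Ratios of counts within a library do not depend on how libraries are scaled, and they set Id2 apart from Id1 and Id3 in the same mice. Id2 had a lowest, median and highest of 1.28, 1.84 and 1.91 counts per Id1 count in DSS mice, against 1.99, 2.36 and 2.58 in controls. The ratio was lower in every DSS mouse than in any control, with a difference of mean log2 ratios, DSS minus Control, of -0.45. Per Id3 count, Id2 had 0.422, 0.452 and 0.590 counts in DSS mice and 0.623, 0.645 and 0.748 counts in controls. DSS replicate 2 had the highest of the DSS values, 0.590, and also lay below all controls. Id1 per Id3 count overlapped, with 0.236, 0.281 and 0.330 in DSS mice and 0.251, 0.302 and 0.312 in controls. A ratio shows unequal change and not which of its genes stayed level.

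**Figure D2:**
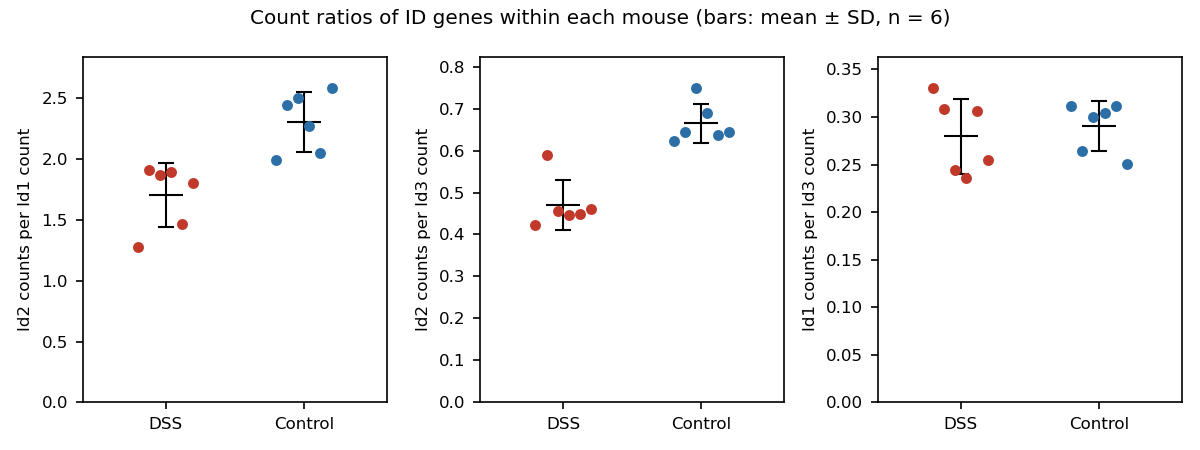
Counts of an ID gene per count of another within each library (vertical axes, from 0) for DSS and control mice; each point is a mouse and bars are mean ± SD (n = 6). Id2 per Id1 lies at 1.28 to 1.91 in DSS mice and 1.99 to 2.58 in controls, Id2 per Id3 is also separate, and Id1 per Id3 overlaps.

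Per kilobase of exon, Id3, Id1 and Id2 held the first 3 places among the 10 in each group. Id3 led with 103 CPM per kilobase in DSS mice and 102 in controls, above the next gene in every mouse. Id1 averaged 44.2 and Id2 35.3 CPM per kilobase in DSS mice, while in controls Id1 averaged 45.8 and Id2 49.8. Within libraries, Id1 was above Id2 in 6 of 6 DSS mice, whereas in controls Id2 was above Id1 in 4 of 6. This order depends on the exon lengths divided by, 1160 bases for Id1 and 2438 for Id2. Before that division Id2 had more counts than Id1 in every mouse, at 1.28 to 1.91 per Id1 count in DSS mice and 1.99 to 2.58 in controls. The ranges of Id1 and Id2 over mice overlapped in each group, at 37.3 to 51.8 and 30.8 to 38.7 CPM per kilobase in DSS mice and at 40.2 to 52.8 and 46.7 to 52.8 in controls. Smad6 came next, at 15.7 CPM per kilobase in DSS mice and 12.9 in controls, apart from its neighbours in the order. Smad7, Bmp6, Bmp7 and Bmp4 followed, between 5.47 and 8.42 CPM per kilobase in DSS mice and between 6.45 and 7.98 in controls, with ranges that overlapped between neighbours. Within libraries, Bmp6 was above Bmp7 in 6 of 6 DSS mice and in 3 of 6 controls. Bmp2 and Id4 were lowest, at 2.59 and 2.32 CPM per kilobase in DSS mice and 2.61 and 2.92 in controls. Their ranges overlapped in each group, and within libraries Bmp2 was above Id4 in 4 of 6 DSS mice, whereas Id4 was above Bmp2 in 6 of 6 controls. Among 17847 tested genes with a length, 98.5% lay below Id3 in controls, 96.8% below Id2, 96.6% below Id1 and 45.5% below Bmp2.

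The inhibitory SMAD genes were higher in DSS mice on average. Smad6, whose product blocks BMP type I receptor signalling, had a lowest, median and highest of 45.5, 48.1 and 61.3 CPM in DSS mice and 33.5, 43.0 and 43.5 CPM in controls. All 6 DSS mice lay above the highest control, and the log2 fold change was 0.29 (SE 0.09), but Smad6 was called in 1 of 19 alternatives, DESeq2's Wald test, and not in edgeR's fit. Among the 10 genes the ranges of 2, Id2 and Smad6, did not overlap between groups, and 3.05% of all tested genes had ranges that did not overlap. Smad7, which inhibits TGF-beta as well as BMP receptors, had 33.8, 39.3 and 40.4 CPM in DSS mice and 28.8, 33.0 and 41.1 CPM in controls. The highest value of Smad7 was that of a control, so the groups overlapped, with a log2 fold change of 0.19 (SE 0.09), not called. Smad6 counts per Id1 count were 0.773 to 1.06 in DSS mice and 0.671 to 0.921 in controls. Endothelial genes, among whose cells these inhibitors are prominent, summed to 793 to 1130 CPM in DSS mice (median 969) and 769 to 998 CPM in controls (median 868), and 0 of 10 were called. Their part in the Smad6 and Smad7 levels was not tested.

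Of the ligand genes, Bmp7 differed most in mean. Bmp7, a ligand of leptomeninges and choroid plexus in mice, had a lowest, median and highest of 15.8, 20.4 and 30.3 CPM in DSS mice and 29.3, 30.9 and 36.4 CPM in controls. In DSS replicates 1 and 2 it was 28.2 and 30.3 CPM, close to controls, and in DSS replicates 3, 4 and 6 it was 15.8 to 17.4 CPM. DSS replicate 5 lay between them, at 23.5 CPM. Of the DSS mice, 5 were under all controls. The log2 fold change was -0.53 (SE 0.15), not called. Bmp7 was called in 6 of 19 alternatives, among them the one without DSS replicate 2, with a log2 fold change of -0.62. Choroid plexus genes summed to 64.2 to 9520 CPM in DSS mice and 104 to 9520 CPM in controls. In DSS replicates 1 and 2, the DSS mice highest in Bmp7, the choroid plexus sums were 7480 and 9520 CPM, the highest of the DSS mice. DSS replicate 5 had a sum of 4290 CPM, and replicates 3, 4 and 6, lowest in Bmp7, had 728, 64.2 and 6190 CPM. Among controls, replicates 2 and 5 had the lowest sums, at 104 CPM each, with 36.4 and 29.3 CPM of Bmp7. The other controls had sums of 4410 to 9520 CPM and 30.0 to 33.0 CPM of Bmp7. The part of choroid plexus RNA in the Bmp7 level was not tested. Astrocyte and neuron genes summed to 123 to 203 CPM in DSS mice and 162 to 252 CPM in controls, with 0 of 8 called. All 8 were lower in DSS mice, with log2 fold changes of -1.01 to -0.23. The lowest adjusted p in edgeR's test was 0.0504 (Snap25). Their part in the Bmp7, Id4 and Id2 levels was not tested.

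Bmp6, a ligand with a known role in iron control through hepcidin, had 23.3, 25.1 and 34.0 CPM in DSS mice and 28.6, 30.9 and 36.0 CPM in controls. As for Bmp7, DSS replicates 1 and 2 were the high ones, at 31.1 and 34.0 CPM, and the other 4 lay below the lowest control (log2 fold change -0.20, SE 0.10). DSS replicates 1 and 2 also had the highest choroid plexus sums of the DSS mice. Control replicates 2 and 5, with the lowest sums, had 31.4 and 28.6 CPM of Bmp6, against 28.7 to 36.0 CPM in the other controls. The part of choroid plexus RNA in the Bmp6 level was not tested. Bmp4, a ligand that patterns the dorsal neural tube and many other tissues, had 10.7, 12.1 and 14.1 CPM in DSS mice and 12.8, 14.7 and 15.7 CPM in controls. The groups overlapped, with 3 of 6 DSS mice under all controls and a log2 fold change of -0.24 (SE 0.09). Bmp2, an osteogenic ligand, had 8.00, 9.37 and 10.2 CPM in DSS mice and 7.98, 8.89 and 10.9 CPM in controls, so the DSS values lay inside the range of controls (log2 fold change -0.01, SE 0.11). No ligand gene among the 10 was called. The sign of Bmp2 turned in 11 of 19 alternatives, with 0.0053 under DESeq2 size factors. Osteoblast genes, from a cell type that makes and answers BMPs, summed to 819 to 2560 CPM in DSS mice and 1490 to 2720 CPM in controls, with 1 of 8 called, lower. Exons of Bmp6 share 224 bases with Txndc5 on the opposite strand, whose own log2 fold change was 0.00 (SE 0.10, adjusted p = 0.996). Those of Bmp4 share 89 bases with Gm15217, with 0 to 1 counts.

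Over the 10 genes the median log2 fold change was -0.12, beside -0.02 over all tested genes. The 4 ID genes had a median of -0.20, the inhibitory SMADs 0.24 and the 4 ligands -0.22.

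The rest of the pathway was measured with 68 listed genes in 8 groups, of which 62 passed the filter. Of these, 2 rose and 0 fell at an adjusted p under 0.05 in edgeR's test, while 9 had an unadjusted p under 0.05, and their median log2 fold change was -0.03. Over all tested genes 3.68% were called higher and 19.0% had an unadjusted p under 0.05. The lists were written with earlier results of these mice known.

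Receptors and co-receptors were measured with 11 genes, of which 1 rose, and 4 of the 11 had an unadjusted p under 0.05. Eng, which encodes endoglin, a co-receptor of endothelial cells for BMP9 and BMP10, had a lowest, median and highest of 107, 124 and 135 CPM in DSS mice and 77.6, 90.6 and 114 CPM in controls. In 5 of 6 DSS mice it was above the highest control (log2 fold change 0.38, SE 0.10, adjusted p = 0.0394). The call was lost without DSS replicate 1, 4 or 6 or Control replicate 2, 3, 5 or 6, with adjusted p between 0.0622 and 0.0964, without both Control replicate 2 and DSS replicate 2 at adjusted p = 0.0649, and without the filter on low counts at adjusted p = 0.0593. It held in 10 of 19 alternatives. Acvrl1, the type I receptor gene that signals with endoglin, had 58.3, 63.8 and 73.7 CPM in DSS mice and 54.3, 59.7 and 65.5 CPM in controls (log2 fold change 0.12, SE 0.07, adjusted p = 0.432). Bmpr2, the main type II receptor gene, had 160, 182 and 208 CPM in DSS mice and 138, 176 and 210 CPM in controls (adjusted p = 0.808). Acvr1, a type I receptor gene named here after its values were seen, had 31.2, 33.5 and 35.8 CPM in DSS mice and 28.2, 29.1 and 30.8 CPM in controls. All 6 DSS mice lay above the highest control, but Acvr1 did not pass (log2 fold change 0.19, SE 0.06, adjusted p = 0.067). Bmpr1a, a type I receptor gene also named after its values were seen, went the other way. It had 93.1, 103 and 115 CPM in DSS mice and 106, 117 and 131 CPM in controls. Of the DSS mice, 5 lay below the lowest control (log2 fold change -0.18, SE 0.07, adjusted p = 0.167). The receptor group ranged from -0.69 (Bmpr1b, a type I receptor gene named here after its values were seen, adjusted p = 0.111) to 0.38 in log2 fold change, with a median of -0.04. The endothelial sums given above overlapped between groups, and Pecam1, an endothelial adhesion gene, was at 0.22 in log2 fold change (adjusted p = 0.226).

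The signal-carrying SMAD genes were near 0 in log2 fold change. Smad1 was at 0.04 (SE 0.07), Smad5 at 0.04 (SE 0.06) and Smad9 at -0.11 (SE 0.09), and the lowest adjusted p of the 4 genes in this group was 0.574. Smad5 had 64.1, 66.5 and 74.6 CPM in DSS mice and 60.3, 64.1 and 74.8 CPM in controls. None of 14 extracellular antagonist genes passed in edgeR's test, and 1 had an unadjusted p under 0.05. Nog, which encodes noggin, a binder of BMP2 and BMP4, had 17.4, 23.3 and 29.6 CPM in DSS mice and 15.5, 21.2 and 24.7 CPM in controls (log2 fold change 0.13, SE 0.13, adjusted p = 0.690). None of 6 intracellular and membrane inhibitor genes passed in edgeR's test, and 1 had an unadjusted p under 0.05. Bambi, a decoy receptor gene that BMP signalling induces, had 14.2, 18.3 and 20.0 CPM in DSS mice and 14.9, 18.4 and 23.7 CPM in controls (log2 fold change -0.09, SE 0.12, adjusted p = 0.747), with a positive value of 0.042 without both Control replicate 2 and DSS replicate 2.

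Other target genes of BMP-activated SMADs did not pass the test either. Of the 8, 0 were called and 1 had an unadjusted p under 0.05, and the median log2 fold change was 0.10. Atoh8, a basic helix-loop-helix gene induced by BMP in endothelial and liver cells, had 16.3, 20.0 and 26.2 CPM in DSS mice and 16.6, 19.2 and 20.9 CPM in controls (log2 fold change 0.10, SE 0.11, adjusted p = 0.713). The E proteins that IDs bind were measured through Tcf3, Tcf4 and Tcf12, of which 0 were called and 0 had an unadjusted p under 0.05. Tcf4 had 98.0, 112 and 137 CPM in DSS mice and 101, 115 and 142 CPM in controls (log2 fold change -0.07, SE 0.10, adjusted p = 0.788). Of 6 other BMP-family ligand genes that passed the filter 0 were called and 1 had an unadjusted p under 0.05. Those of the circulating ligands BMP9 and BMP10, Gdf2 and Bmp10, did not pass, with 0 to 10 and 0 to 1 counts per library.

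Of 10 genes of the TGF-beta branch 1 rose. Tgfb1, the ligand gene most made by leukocytes, had 19.8, 23.0 and 25.5 CPM in DSS mice and 14.8, 18.1 and 18.7 CPM in controls. All 6 DSS mice lay above the highest control, and the log2 fold change was 0.38 (SE 0.08, adjusted p = 0.0142). The call held in all 19 alternatives, with adjusted p between 0.000435 and 0.0380. Macrophage genes summed to 600 to 1140 CPM in DSS mice and 645 to 766 CPM in controls with 1 of 8 called, and the neutrophil sums given above did not overlap. Their part in the Tgfb1 level was not tested. Tgfb2 and Tgfb3 had log2 fold changes of -0.05 and -0.04 (adjusted p = 0.884 and 0.887).

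**Figure D3:**
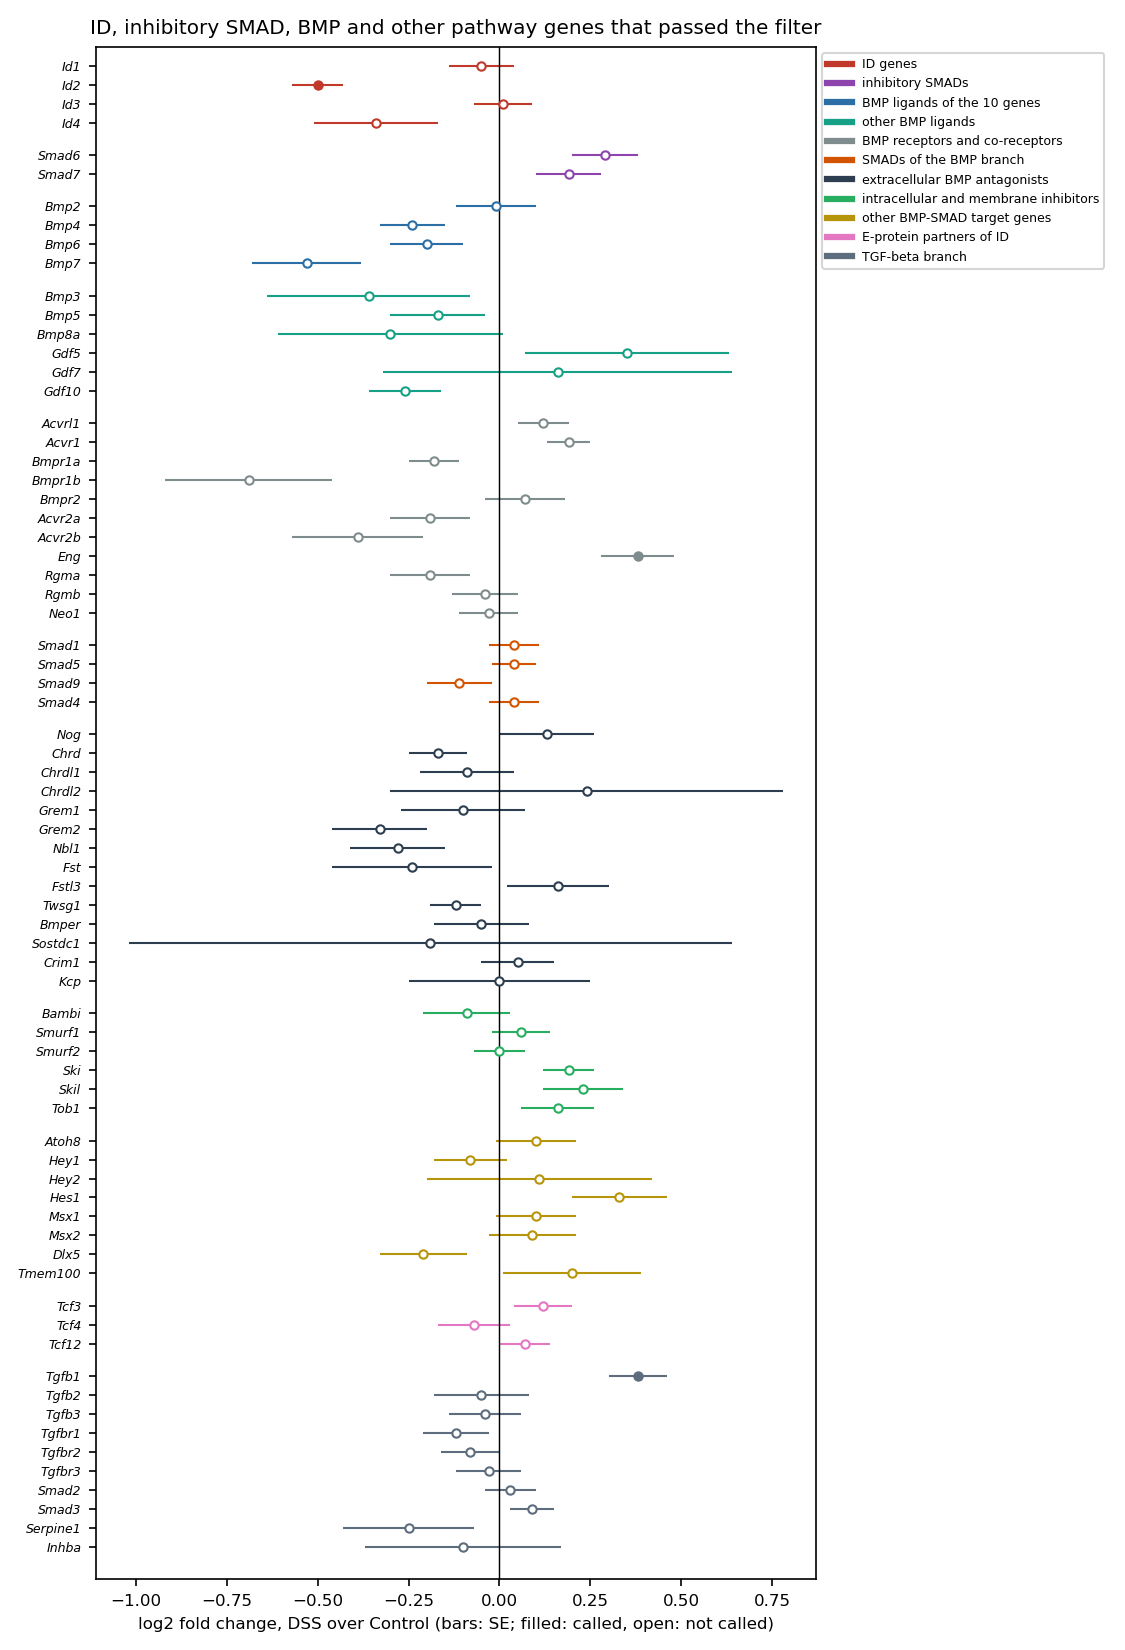
Log2 fold change of DSS over Control (horizontal axis) with SE for the 10 genes and the 62 other pathway genes that passed the filter, grouped by role; filled points were called at an adjusted p under 0.05 and open points were not. Id2 lies at -0.50, and Eng and Tgfb1 at 0.38 each are the other filled points.

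Whether the genes varied together from mouse to mouse was examined without the difference between groups, on log2 CPM after each group's mean was removed. Of 45 pairs, 0 passed a permutation test within groups at an adjusted p under 0.05 by Pearson's r, and 0 by Spearman's rho, and 4 had an unadjusted Pearson p under 0.05. Bmp6 and Bmp7 had the largest r, 0.79 over 12 mice (permutation p = 0.0107, adjusted p = 0.484; rho 0.61, permutation p = 0.0871, adjusted p = 0.653). It was 0.90 within DSS mice and 0.25 within controls. Without the 2 mice farthest from the median of Bmp6, DSS replicate 2 and Control replicate 1, it was 0.80. DSS replicate 1, also high in both genes, was kept, so whether r rests on that mouse was not tested. Smad6 and Smad7 had r = 0.62 (permutation p = 0.0399, adjusted p = 0.520; rho 0.74, permutation p = 0.0107, adjusted p = 0.241), with 0.73 within DSS mice and 0.59 within controls, and 0.49 without the 2 farthest mice. Id3 and Bmp6 went opposite ways with r = -0.68 (permutation p = 0.0271, adjusted p = 0.520; rho -0.76, permutation p = 0.00688, adjusted p = 0.241). Within DSS mice the r of Id3 and Bmp6 was -0.90 and within controls -0.20. Over both groups it was -0.31 without DSS replicates 2 and 3, so it rests on those mice. It passed the threshold of the permutation test without Control replicate 1 (r = -0.83, adjusted p = 0.0274). Id2 and Id1 had r = -0.05 between mice of a group, and Id2 and Id3 had r = 0.26, neither of which passed.

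**Figure D4:**
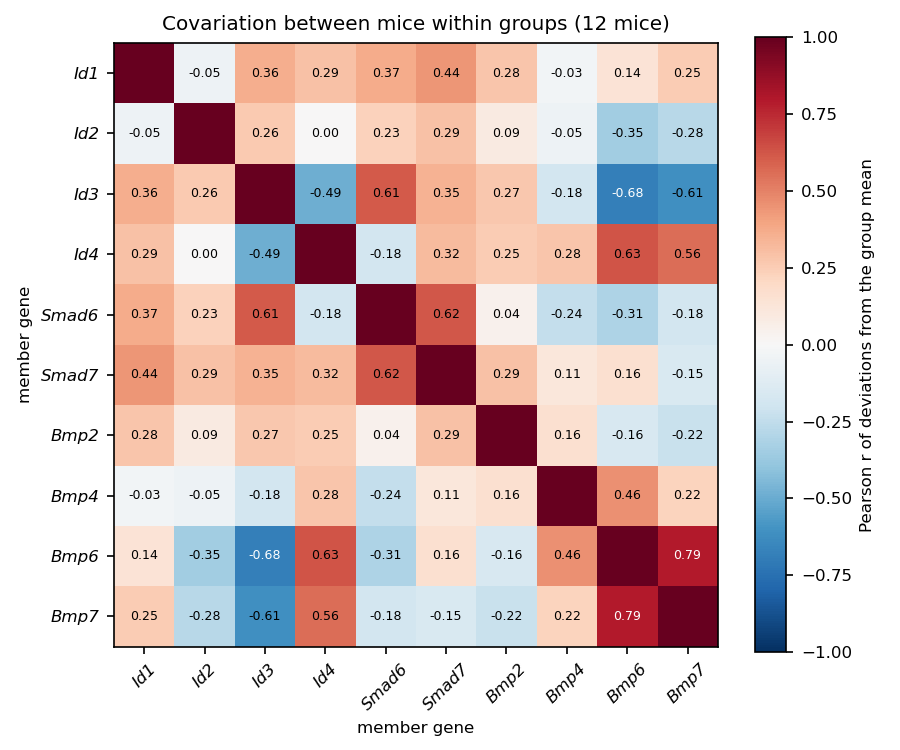
Pearson r (colour and printed value) between each pair of the 10 genes over 12 mice, computed on log2 CPM after subtraction of the group mean. Bmp6 and Bmp7 have the highest r, 0.79, Id3 and Bmp6 the lowest, -0.68, and no pair passed an adjusted p under 0.05.

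The same measure was taken over 12 mice and 9968 genes whose mean log2 CPM was 3 or more. Genes with predicted, Rik, accession-style or mitochondrial names were left out. Among these 9968, Id1 was most like Gtpbp1 (r = 0.90), Utp11l (0.90) and Fam110a (0.86). Id2 was most like Zfp692 (0.83), Aldh3a1 (0.82) and Shc2 (0.81). These are the highest of many values, given as a description. None of the 6 genes was called between groups, and none belongs to the pathway lists.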

How the data were processed

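Total RNA from the meninges of 12 mice was sequenced from stranded libraries, per the labels' protocols. The submitters' processing notes name HISAT2, featureCounts, Trim Galore, FastQC and CASAVA, and the build mm10. No version, gene annotation, strand setting or handling of multiply mapped reads is named (not given in the sources used here), so overlapping genes are uncertain where they share reads. The deposited table holds raw counts for each symbol, not normalized by the authors. A second, normalized table was not used here.

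The 10 genes and all gene lists were chosen with earlier results of these data known. Genes outside the 10 were named by rule: up to 3 called genes of each pathway list, 10 pathway genes always given, and the 3 genes most like Id1 and Id2. Beyond the rule, Acvr1, Bmpr1a, Bmpr1b, Ski and Nbl1 were named after their values were seen. The others complete a group, are marker genes or ribosomal RNA features, or overlap exons of the 10 genes.

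Differential expression used edgeR 4.0.16 in R 4.3.3 on all 12 libraries: filterByExpr (minimum count 10, minimum total 15), TMM factors and the two-sided quasi-likelihood test with Benjamini-Hochberg adjustment over 18593 genes. The SE of a log2 fold change is its size over the square root of F. CPM was computed on TMM-scaled totals, with a prior count of 2 where logged. Correlations used 100000 permutations within groups, adjusted over 45 pairs. Exon lengths and coordinates are from GENCODE M21 (GRCm38, which mm10 denotes).

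Alternatives were DESeq2 1.42.0 size factors and its Wald test, limma 3.58.1 voom with quality weights, other filters, a replicate block, each mouse left out, and Control replicate 2 and DSS replicate 2 left out together. Tested on simulated data for DSS against Control (18329 genes), edgeR called 38% of genes changed 1.5-fold and 82% of those changed 2-fold. Depth was 9312788 to 41869997 counts per mouse, and the spread between mice sets the errors.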

Additional observations from a re-analysis of the deposited data

Results flagged for a closer look

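Smad6 in Control replicate 3, at 33.5 CPM, was far below the other controls, which lay between 41.6 and 43.5 CPM. Its gap to the nearest control was 0.826 of the range of the group. It was the 1 such value among 42 groups of 6 mice examined, and chance flags about 1 in 20 groups. All 6 DSS mice, at 45.5 to 61.3 CPM, lay above the highest control. Leaving out the lowest control cannot alter that. Without Control replicate 3 the log2 fold change of Smad6 was 0.24, against 0.29 with all mice, and Smad6 was called in neither fit.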

How the results depend on the processing

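Id2 and Tgfb1 were called in all 19 alternatives. Both were listed with earlier results of these same mice known, so this describes the processing and is not independent support. The number of called genes was 919, and 1551 with DESeq2's Wald test and 1363 with limma-voom. It was 750 without a filter, 1152 without Control replicate 2 and DSS replicate 2 together, and 538 to 1379 when a mouse was left out. Of the 10 genes, 1 was called (Id2), and 3 with DESeq2's Wald test, 2 with limma-voom, 2 without Control replicate 2 and DSS replicate 2 together, and 1 to 2 with a mouse left out. The added genes were Bmp7, and Smad6 with DESeq2's Wald test. Of the other pathway genes 2 were called, and 4 with DESeq2's Wald test, 1 without a filter and 1 to 4 with a mouse left out. Acvr1, Ski, Bmpr1b and Nbl1, named after their values were seen, were each called in at least 1 alternative. Correlated pairs numbered 0 to 1 with a mouse left out. The log2 fold change of Bmp2 was positive at 0.0053 with DESeq2 size factors, 0.010 with DESeq2's Wald test, 0.029 with limma-voom, 0.0016 without a filter and 0.035 without both mice. With a mouse left out it ran from -0.037 to 0.052 and that of Id3 from -0.032 to 0.062, and Bambi was at 0.042 without both mice. The cause was not tested.

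The replicate numbers did not pair the mice: same-numbered mice correlated at -0.189 to 0.154, and 1 of 6 DSS mice correlated best with its own number. With the replicate number as a block, 708 genes were called, 2 of the 10 genes (Id2 and Bmp7) and 2 other pathway genes. The SE of the log2 fold changes of the 10 genes ran from 0.07 (Id2) to 0.17 (Id4), which limits what small changes could be called with 6 mice a group.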
